A study of Mus musculus with 28 samples.

Results

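The respiratory chain and ATP synthase of the mitochondrial inner membrane are built from 5 protein complexes, and most of their subunits are encoded in the nucleus. The genes described here are the nuclear genes whose mouse symbols carry the standard names of these subunits: Nduf followed by a, b, c, s or v and a digit for complex I, Sdha to Sdhd for complex II, Uqcr for complex III, Cox4i, Cox5, Cox6, Cox7 and Cox8 for complex IV, and Atp5 for complex V. Of 23393 gene symbols in the liver tables, 84 carried such a name, and 75 had a mean of at least 1 CPM (gene counts scaled to 1000000 per library) over all 28 libraries. Ndufs5 and Atp5g2, which are standard subunit genes, were among those left out. These 75 members comprised 34 genes of complex I, 4 of complex II, 8 of complex III, 13 of complex IV, 14 of complex V, and Atp5s and Atp5sl, which are ATP synthase genes by name rather than subunits. Ndufa4 was placed with complex IV, where its protein is known to reside.

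RNA was sequenced from livers of 129svj mice aged 11 to 13 months and of wild type (WT) or Sirt6 heterozygote (HZ) genotype. Sirt6 encodes a nuclear NAD-dependent deacylase. Animals of either genotype received by gavage either 0.5% carboxymethylcellulose (vehicle) or WY-14643 (WY), a synthetic agonist of the lipid-sensing nuclear receptor PPARα, at 50 mg/kg in the same vehicle, and livers were taken after 12 h. Each of the 4 groups had 7 animals. The labels are silent on the animals' sex and on how the Sirt6 allele was made.

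Complex I takes electrons from NADH and complex II from succinate, complex III passes them to cytochrome c, and complex IV hands them to oxygen. Complexes I, III and IV pump protons, and complex V uses the returning protons to make ATP. In liver, PPARα switches on genes of fatty acid oxidation, whose electrons enter this chain.

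Gene counts per library ranged from 15795201 to 20020078. Sirt6 itself averaged 2.38 ± 0.615 CPM in WT and 1.21 ± 0.180 in HZ under vehicle, and under WY the WT mean was 3.31 ± 0.685 and the HZ mean 1.61 ± 0.359 (SD, n = 7). The difference was -0.97 on the log2 scale under vehicle and -1.04 under WY, with adjusted p = 0.00696 and 0.00721 (edgeR quasi-likelihood test). Hepatocyte markers summed to 51540 CPM or more in every library, so the labelled tissue carried its defining transcripts, while markers of striated muscle summed to at most 1.396 CPM and Mb was at 0. In whole liver, fewer cells of a type and less RNA per cell cannot be told apart. Vehicle and WY libraries were deposited in separate tables, so treatment and any batch that follows these tables cannot be told apart.

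Promoters of 4 members are shown as examples of the responses described below. Ndufs7 had the largest rise with WY, and Cox6a1 rose with WY and was lower in HZ than in WT under WY. Atp5g3 had the highest counted level of the rotor-ring genes, but reads with more than 1 alignment were listed apart from the genes. Of 50-base windows of the transcripts, 66.0% for Atp5g1, 100% for Atp5g2 and 0% for Atp5g3 also occurred in other genes. The counted levels therefore do not rank these genes. Ndufa10 was among the members not called with WY in WT, and it was called higher in HZ. Members that fell with WY are not among the 4. Each promoter is the RefSeq window (GRCm38.p6) of 250 bases before to 50 bases after the start of the gene, 5′ to 3′ on the strand of the gene. Capitals mark matches, on either strand, to 4 motifs. The core of the NRF1 motif, known from many respiratory chain promoters, was searched as GCATGCGC. The core of the ETS motif, read by the factor GABP among others, was searched as CCGGAAG. The element of estrogen-related receptors, partners of PGC-1α, was searched as TCAAGGTCA. The TATA box, which positions the polymerase, was searched as TATAAA. The windows are chr10:80249199-80249498 on the plus strand for Ndufs7, chr5:115348909-115349208 on the minus strand for Cox6a1, chr2:73911277-73911576 on the minus strand for Atp5g3 and chr1:92473709-92474008 on the minus strand for Ndufa10.
Ndufs7: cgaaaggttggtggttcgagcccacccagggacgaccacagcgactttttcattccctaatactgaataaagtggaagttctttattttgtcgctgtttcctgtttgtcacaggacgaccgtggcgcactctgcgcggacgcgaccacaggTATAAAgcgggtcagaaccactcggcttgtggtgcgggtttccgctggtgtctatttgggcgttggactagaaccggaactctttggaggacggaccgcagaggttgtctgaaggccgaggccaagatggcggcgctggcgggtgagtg
Cox6a1: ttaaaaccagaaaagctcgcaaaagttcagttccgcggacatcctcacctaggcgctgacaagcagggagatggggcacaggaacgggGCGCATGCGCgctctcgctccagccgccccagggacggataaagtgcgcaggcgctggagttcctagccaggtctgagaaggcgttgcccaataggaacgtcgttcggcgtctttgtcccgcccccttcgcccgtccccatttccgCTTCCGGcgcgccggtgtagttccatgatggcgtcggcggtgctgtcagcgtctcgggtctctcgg
Atp5g3: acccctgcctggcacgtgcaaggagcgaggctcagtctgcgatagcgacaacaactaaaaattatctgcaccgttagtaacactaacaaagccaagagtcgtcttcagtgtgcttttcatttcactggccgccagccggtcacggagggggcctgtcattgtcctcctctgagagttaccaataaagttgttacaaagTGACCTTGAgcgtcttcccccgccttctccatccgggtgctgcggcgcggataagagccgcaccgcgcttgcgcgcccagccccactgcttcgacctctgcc
Ndufa10: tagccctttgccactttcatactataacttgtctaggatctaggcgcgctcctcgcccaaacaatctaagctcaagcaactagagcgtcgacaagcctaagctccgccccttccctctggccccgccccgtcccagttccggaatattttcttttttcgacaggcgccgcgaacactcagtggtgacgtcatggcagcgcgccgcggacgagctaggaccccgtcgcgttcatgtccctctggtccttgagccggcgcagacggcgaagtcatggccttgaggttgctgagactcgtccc

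The Cox6a1 window held an NRF1 core match on both strands, from bases 89 and 91 of the window, and an ETS core match from base 235. The Atp5g3 window held the receptor element from base 199, and the Ndufs7 window held TATAAA from base 152. The Ndufa10 window held none of these letters. RefSeq windows were matched for 64 members, which had 70 promoters. The NRF1 core was in 9 of these 70 promoters (12.9%) against 2.71% of 32851 mouse promoters of the same length, and the ETS core in 16 (22.9%) against 8.86%. The receptor element was in 2 (2.86%) against 0.423%, and TATAAA in 6 (8.57%) against 13.6%. No member window held an exact direct repeat of AGGTCA with 1 base between the copies, a form of the element bound by PPARα, and 0.0396% of all windows did. So rare a match would hardly be met in 70 windows, and inexact copies were not searched. Its absence therefore tells nothing about elements for PPARα. Member windows were rich in CpG, with a median of 19 CpG and 57.5% GC against 7 and 52.7% in all windows. These matches are descriptions of letters in a short window, and not binding sites.

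With vehicle in WT, the members differed in level over a wide range. Per kilobase of transcript, Atp5b, the catalytic beta subunit of complex V, was highest at 779.5 ± 32.2 CPM per kb (SD, n = 7). Uqcrq, a small complex III subunit, followed at 607 ± 17.1, and Atp5g3, which encodes the c subunit of the rotor ring, at 593.8 ± 65.2. The medians of the complexes on this scale were 92.5 for I, 199 for II, 183 for III, 187 for IV and 202 for V. The forms typical of muscle, lung or testis were almost silent, as Cox4i2, Cox6a2, Cox7a1, Cox7b2, Cox8b and Cox8c were all under 1 CPM. Not all genes left out as members were such forms. Ndufs5, an accessory subunit of complex I, had 0 counts in every library. Over all libraries Atp5g2, of the rotor ring, averaged 0.280 CPM and Ndufa4l2, a paralogue of Ndufa4, 0.599 CPM. Of the transcript windows, 41.2% for Ndufs5 and 100% for Atp5g2 also occurred in other genes. The counts of Ndufs5 and Atp5g2 therefore do not tell whether these genes were silent. Cox6b2, a form best known from testis, was measured at 13.1 ± 1.67 CPM beside 173.8 ± 7.02 CPM for its ubiquitous partner Cox6b1.

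WY raised most members in both genotypes. Together the members made up 1.17 ± 0.0623% of gene counts in WT vehicle and 1.51 ± 0.0333% in WT WY (SD, n = 7), with no overlap between the groups. In HZ the share was 1.10 ± 0.0774% with vehicle and 1.36 ± 0.0694% with WY. In WT, 61 of 75 members were called higher and 2 lower at an adjusted p under 0.05 (edgeR quasi-likelihood test over 12607 genes), where 27.4% of all genes were called higher and 26.7% lower. In HZ, 60 were called higher and 2 lower, against 29.3% and 26.4% of all genes. The animals of the 2 groups did not overlap for 51 rising members in WT, against 15.7% of all genes, and for 32 in HZ, against 12.6%. The median log2 fold change of the members was 0.37 in WT and 0.28 in HZ, beside -0.02 and 0.01 over all genes. Of the members called higher, 58 were shared by the genotypes, which is 95.1% of those in WT and 96.7% of those in HZ. Hepatocyte markers moved the other way: their summed level had a median of 104400 CPM in WT vehicle (91000 to 123300) and 76980 in WT WY (72670 to 85610), without overlap. In HZ the medians were 109700 with vehicle (87590 to 119300) and 67510 with WY (51540 to 88110). Of 11 tested hepatocyte markers, 8 were called lower with WY in WT and 9 in HZ, and none higher. The part of this shift in the response of the members was not tested.

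**Figure D1:**
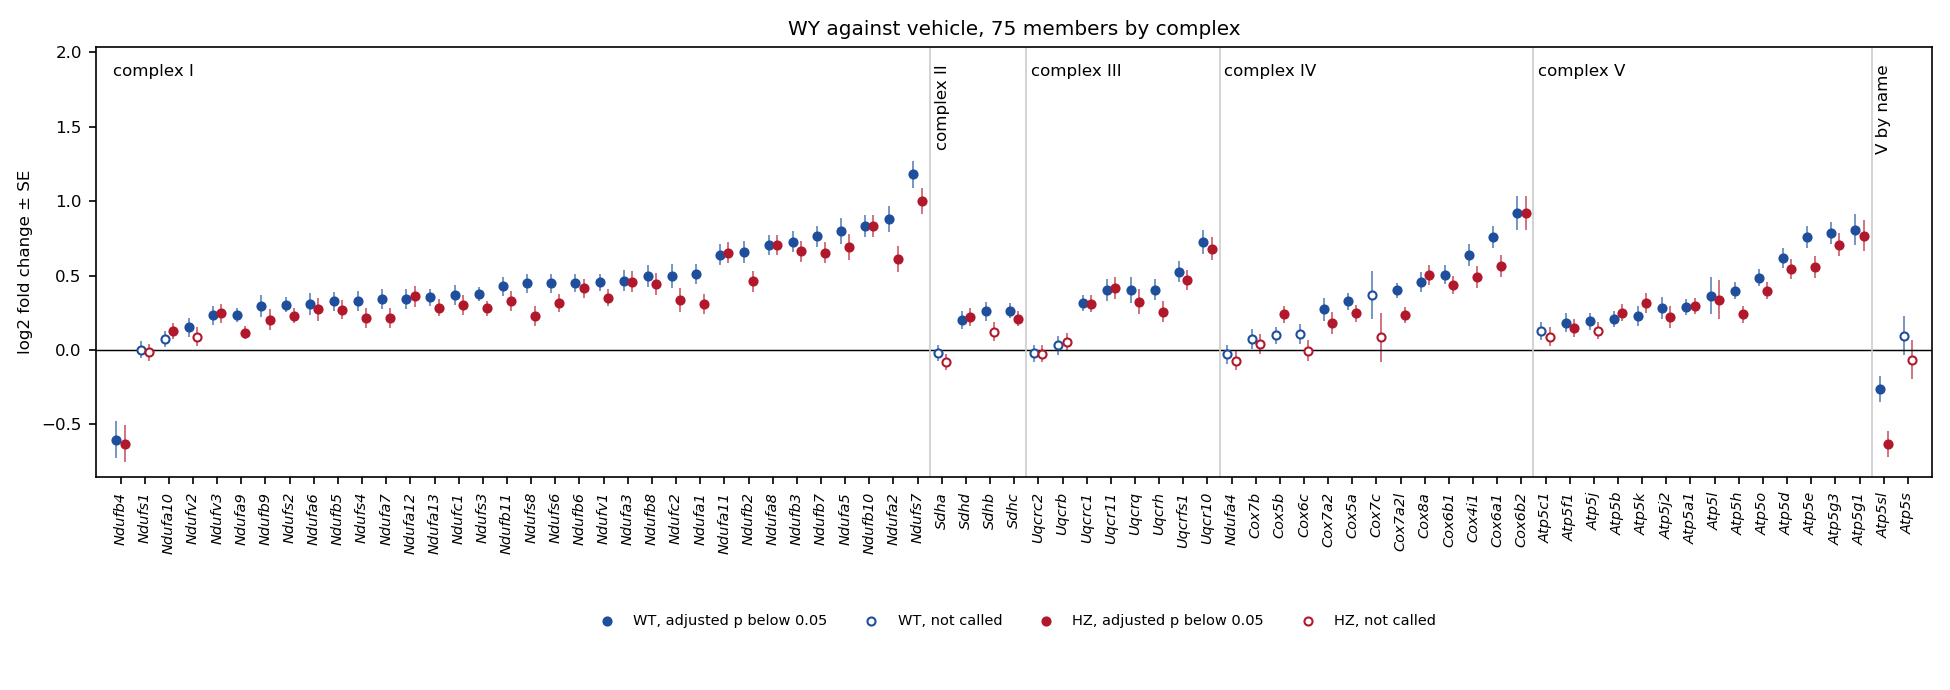
Log2 fold change ± SE of WY against vehicle for each of the 75 members (x axis, grouped by complex and sorted by the value in WT), in WT (blue) and HZ (red). Filled points passed an adjusted p of 0.05 in edgeR. Most points lie above 0, with Ndufs7 highest at 1.18 in WT, while Ndufs1, Sdha, Uqcrc2 and Ndufa4 lie near 0 in both genotypes and Ndufb4 lies below it.

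Complex I showed the widest range. In WT 31 of its 34 members were called higher and 1 lower, with a median log2 fold change of 0.44, and in HZ the counts were the same with a median of 0.31. Ndufs7, a core subunit that carries an iron-sulfur cluster, ranged from 62.9 to 76.1 CPM (median 68.1) in WT vehicle and from 139.7 to 176.4 (median 155.8) in WT WY. In HZ it ranged from 43.0 to 71.6 (median 63.8) with vehicle and from 96.2 to 139.9 (median 130.6) with WY. Every WY animal was above every vehicle animal of its genotype. The rise was 1.18 ± 0.09 (log2, SE) in WT with adjusted p = 3.82e-11 and 1.00 ± 0.09 in HZ with adjusted p = 2.75e-10 (edgeR).

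The accessory subunits Ndufb10 and Ndufa2 came next in complex I. Ndufb10 ranged from 103.3 to 121.6 CPM in WT vehicle and from 193.0 to 228.8 in WT WY, a rise of 0.83 on the log2 scale in both genotypes. Ndufa2 rose by 0.88 in WT and 0.61 in HZ. Of the 7 core subunits, 6 were called higher in WT and 5 in HZ, and the exception in both was Ndufs1, the largest of them, which holds several iron-sulfur clusters. Ndufs1 was 193.5 ± 10.5 CPM in WT vehicle and 193.8 ± 13.7 in WT WY (SD, n = 7), and its log2 fold change was 0.00 ± 0.06 (SE). Ndufb4, an accessory subunit, fell, from 6.86 ± 0.904 to 4.51 ± 0.675 CPM in WT, with a log2 fold change of -0.61 ± 0.12 and adjusted p = 0.000148 (edgeR). The groups overlapped for Ndufb4, which was low, and 37.0% of 50-base windows of its transcript occurred in transcripts of other genes. HTSeq listed reads with more than 1 alignment apart from the genes, and they made up 35.8% to 42.6% of all counts in a library. Reads of Ndufb4 may be among them, and how many is not known.

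Complex II moved least. Its 4 genes had a median log2 fold change of 0.23 in WT and 0.17 in HZ. Sdha, the flavoprotein that oxidizes succinate, was 583.9 ± 25.3 CPM in WT vehicle and 576.3 ± 32.0 in WT WY, and it was not called in either genotype (log2 fold change -0.02 and -0.08). Its iron-sulfur partner Sdhb rose by 0.26 in WT with adjusted p = 0.00111, and was not called in HZ (0.12, adjusted p = 0.108, edgeR). The membrane anchors Sdhc and Sdhd were called higher in both genotypes.

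In complex III, 6 of 8 members were called higher in each genotype. Uqcr10, a small accessory subunit, ranged from 73.9 to 92.7 CPM in WT vehicle and from 120.7 to 151.7 in WT WY, without overlap, and rose by 0.73 in WT and 0.68 in HZ on the log2 scale. The Rieske iron-sulfur protein gene Uqcrfs1 rose by 0.53 and 0.47. The core protein gene Uqcrc2 was 346.1 ± 17.7 CPM in WT vehicle and 340.7 ± 18.5 in WT WY and was not called, and Uqcrb was not called either. Of the transcript windows of Uqcrc2 and Uqcrb, 24.8% and 43.4% also occurred in other genes.

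In complex IV, 8 of 13 members were called higher in WT and 9 in HZ. Cox4i1, the ubiquitous form of subunit 4, ranged from 302.7 to 348.3 CPM (median 323.5) in WT vehicle and from 462.0 to 574.5 (median 495.1) in WT WY. The rise of Cox4i1 was 0.64 ± 0.07 (log2, SE) in WT and 0.49 ± 0.07 in HZ, with no overlap in either. Cox6a1, the liver form of subunit 6a, ranged from 178.2 to 198.3 CPM in WT vehicle and from 274.4 to 364.3 in WT WY, a rise of 0.76, and rose by 0.56 in HZ. Cox6b2 had the largest rise of the complex, 0.92 in both genotypes. Ndufa4, Cox7b and Cox6c were called in neither genotype, and Ndufa4 was 327.5 ± 12.6 CPM in WT vehicle and 320.7 ± 24.7 in WT WY.

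In complex V, 13 of 14 members were called higher in WT and 12 in HZ. The rotor-ring genes rose most: Atp5g3 ranged from 368.6 to 494.8 CPM in WT vehicle and from 672.4 to 782.0 in WT WY, a rise of 0.79 ± 0.08 (log2, SE) in WT and 0.71 ± 0.08 in HZ. Atp5g1 encodes the same mature protein and rose by 0.81 and 0.77, although 66.0% of its transcript windows also occurred in other genes. The catalytic Atp5b went from 1494 ± 61.6 to 1724 ± 83.6 CPM in WT, a smaller rise of 0.21 that still left no overlap. Atp5sl, an ATP synthase gene by name only, fell by 0.26 in WT and by 0.63 in HZ on the log2 scale.

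**Figure D2:**
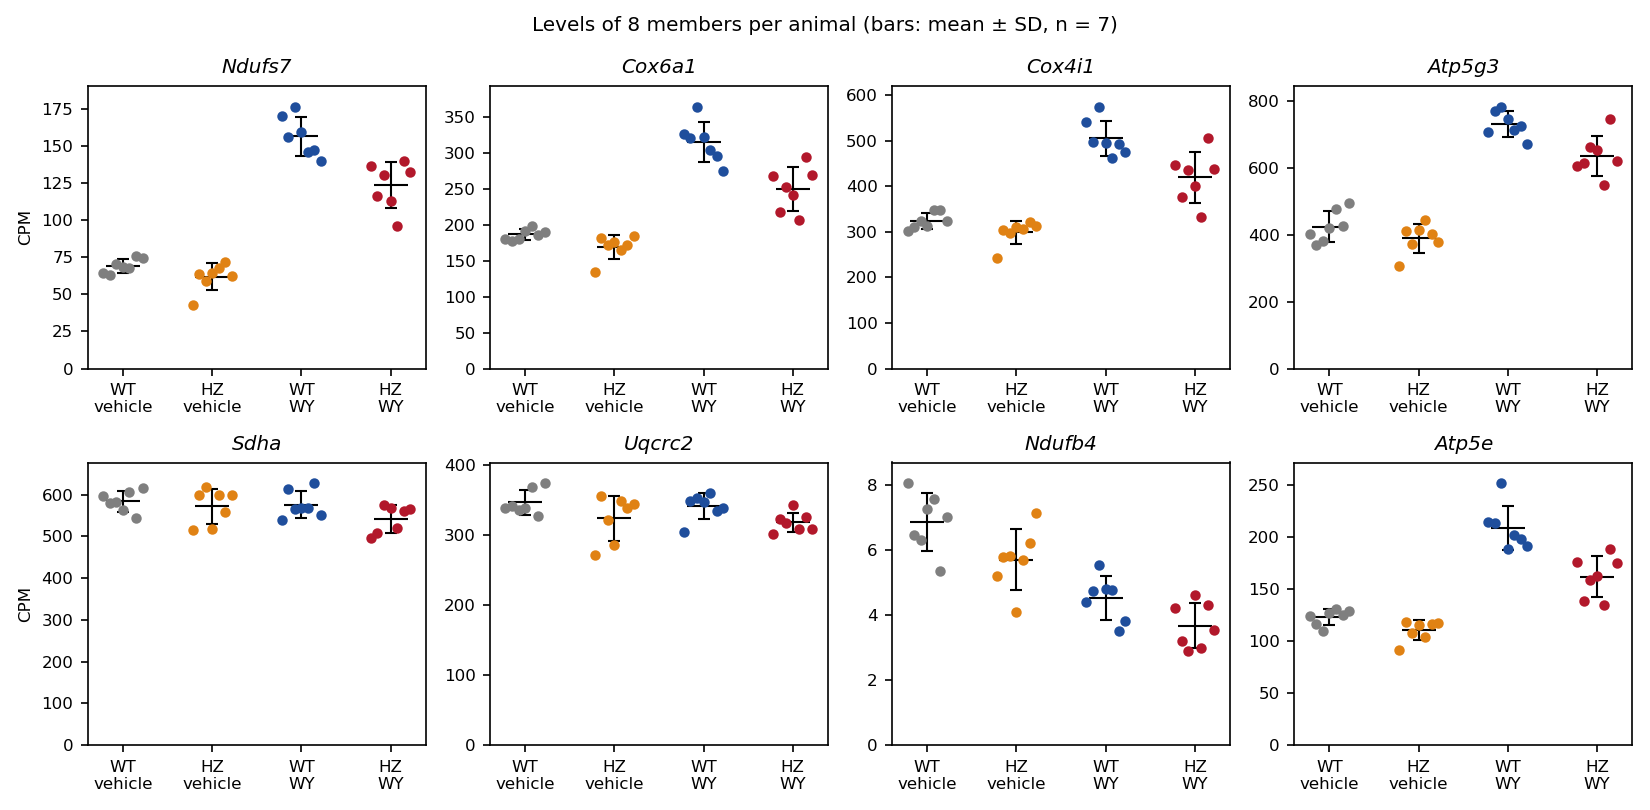
CPM per animal (points) of 8 members in the 4 groups, with mean ± SD bars (n = 7) and a y axis from 0. Ndufs7, Cox6a1, Cox4i1, Atp5g3 and Atp5e are higher in all WY animals than in all vehicle animals of the same genotype, Sdha and Uqcrc2 overlap between treatments, and Ndufb4 is lower with WY.

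Genes around the complexes were examined as lists, to be read beside the 27.4% of all genes called higher and 26.7% called lower with WY in WT, and the 29.3% and 26.4% in HZ. Of 9 subunits and electron carriers with other names, 7 were called higher with WY in WT and 8 in HZ. Etfb, a subunit of the flavoprotein that brings electrons from fatty acid oxidation, rose by 0.87 in WT and 0.84 in HZ, and Cyc1, cytochrome c1 of complex III, rose by 0.52 and 0.55. Of 21 tested complex IV assembly factors, 12 were called higher in WT and 13 in HZ and none lower, led by Cox19 (0.98 and 1.05). Of 15 complex I assembly genes, 5 were called higher and 1 lower in WT, where the share called higher was near that of all genes, and 8 and 3 in HZ. In the coenzyme Q pathway 8 of 12 genes were called higher in each genotype.

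Among 13 tested regulators of mitochondrial biogenesis, 4 were called higher and 3 lower in WT, and 6 higher and 3 lower in HZ. In WT both shares were near those of all genes (27.4% and 26.7%), so the counts set this list apart in neither direction. Ppargc1a, the coactivator PGC-1α known to raise respiratory chain genes, fell by 2.01 in WT and by 2.17 in HZ on the log2 scale. Gabpa, a GABP subunit, fell by 0.47 and 0.36. Esrra, an estrogen-related receptor, rose by 0.58 and 0.61, and Tfam, the mitochondrial DNA transcription factor, rose by 0.49 and 0.56. Exons of Gabpa overlap those of Atp5j on the opposite strand over 397 bases, and whether the counting used strand is not stated. No gene of mitochondrial DNA was among the symbols matched, so those subunits were not analysed here. Of 10 established PPARα target genes, 9 were called higher with WY in WT and 10 in HZ. Between genotypes their median log2 fold change, HZ against WT, was -0.82 under vehicle, with 1 called lower. It was -0.12 under WY, with none called. Under vehicle their summed level was 18960 to 39980 CPM in WT and 8454 to 31430 in HZ. The part of this in the genotype difference of the members was not tested.

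Members with NRF1 or ETS letters in their window are set beside the others as a description. All 20 were called higher in WT, with a median log2 fold change of 0.40, beside 34 of 44 members without them, with a median of 0.36. In HZ 18 of 20 and 35 of 44 were called higher, with medians of 0.33 and 0.28.

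Transcript length moved with the response across the whole table. Members had short transcripts, with a median of 809 bases, and 67 of 75 fell in the shortest 25% of all tested genes (up to 1776 bases). The median log2 fold change of all genes with WY in WT went from 0.20 in the shortest 25% through 0.04 and -0.04 to -0.22 in the longest 25%. The 67 members among the shortest had a median of 0.40, and the other genes there 0.19. In HZ these values were 0.31 and 0.15. Across the 75 members, Spearman's rho of the WY response in WT with length was -0.48, beside -0.32 over all genes. Members share libraries and are not replicates. With a length trend removed from each library, 47 members in WT and 41 in HZ were called higher and 5 and 4 lower. The median log2 fold changes of the members were 0.20 and 0.14. Over all genes 6377 and 6763 were then called either way, beside 6815 and 7024 in the main fit. The share of reads outside genes was 8.45 ± 0.114% in WT vehicle and 6.75 ± 0.321% in WT WY (SD, n = 7). The part of length and of library preparation in the response was not tested beyond these values.

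**Figure D3:**
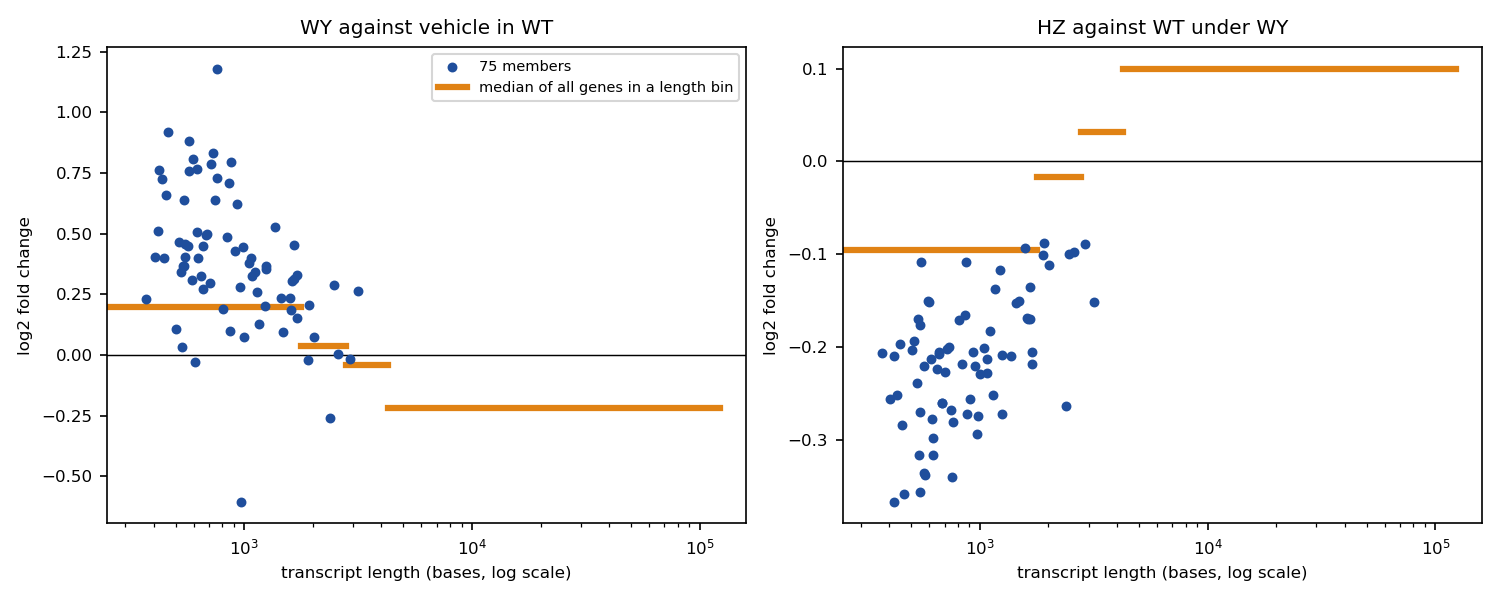
Log2 fold change of the 75 members (blue points) against transcript length in bases on a log axis, for WY against vehicle in WT (left) and HZ against WT under WY (right). Orange bars are medians of all tested genes in 4 bins of transcript length that hold about equal numbers of genes. Most members lie at short lengths, above the first orange bar on the left (0.20) and below it on the right (-0.10).

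HZ livers had slightly lower levels of these transcripts than WT livers. Under WY all 75 members had a log2 fold change below 0, with a median of -0.21 beside 0.01 over all genes. Of them 24 were called lower and none higher (edgeR), where 1.74% of all genes were called lower. For 10 members every HZ animal was below every WT animal, against 0.896% of all genes. The called members were 14 of 34 in complex I, 1 of 4 in II, 1 of 8 in III, 5 of 13 in IV and 3 of 14 in V. This count depended on single libraries. It was 2 without WT WY animal 19, 5 without HZ WY animal 15 or 21, and 6 without WT WY animal 11. It was 10 without WT WY animal 10, 12 without HZ WY animal 5 and 48 without HZ WY animal 2. Calls over all genes, either way, moved with it from 398 in the main fit. They were 74 without WT WY animal 19, 126 and 107 without HZ WY animal 15 or 21, and 124 without WT WY animal 11. They were 159 without WT WY animal 10, 250 without HZ WY animal 5 and 977 without HZ WY animal 2.

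Atp5e, the epsilon subunit of the complex V head, ranged from 188.8 to 251.8 CPM (median 202.3) in WT WY and from 134.9 to 188.3 (median 163.1) in HZ WY. All HZ animals were below all WT animals. The log2 fold change was -0.37 ± 0.07 (SE) with adjusted p = 0.0134 (edgeR). Atp5h, of the peripheral stalk, ranged from 63.2 to 75.5 CPM in WT WY and from 47.0 to 60.6 in HZ WY, also without overlap, with a log2 fold change of -0.30 ± 0.06 and adjusted p = 0.0134. Of its 50-base transcript windows, 50.5% also occurred in other genes.

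In complex IV, Cox6b1, which faces cytochrome c, ranged from 230.0 to 271.6 CPM in WT WY and from 176.3 to 226.7 in HZ WY. These groups did not overlap, and the log2 fold change was -0.28 ± 0.06 (SE) with adjusted p = 0.0176 (edgeR). Cox6a1 ranged from 274.4 to 364.3 CPM in WT WY and from 206.4 to 294.6 in HZ WY, where 6 of 7 HZ animals were below the lowest WT animal, and its log2 fold change was -0.34 ± 0.07. In complex I the core subunits Ndufs3, Ndufs7 and Ndufs8 were called lower, with -0.20, -0.34 and -0.27. For Ndufs3, 39.7% of transcript windows also occurred in other genes. Sdhb was the complex II member called (-0.25), and Uqcrh, the hinge protein, the complex III member called (-0.27).

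**Figure D4:**
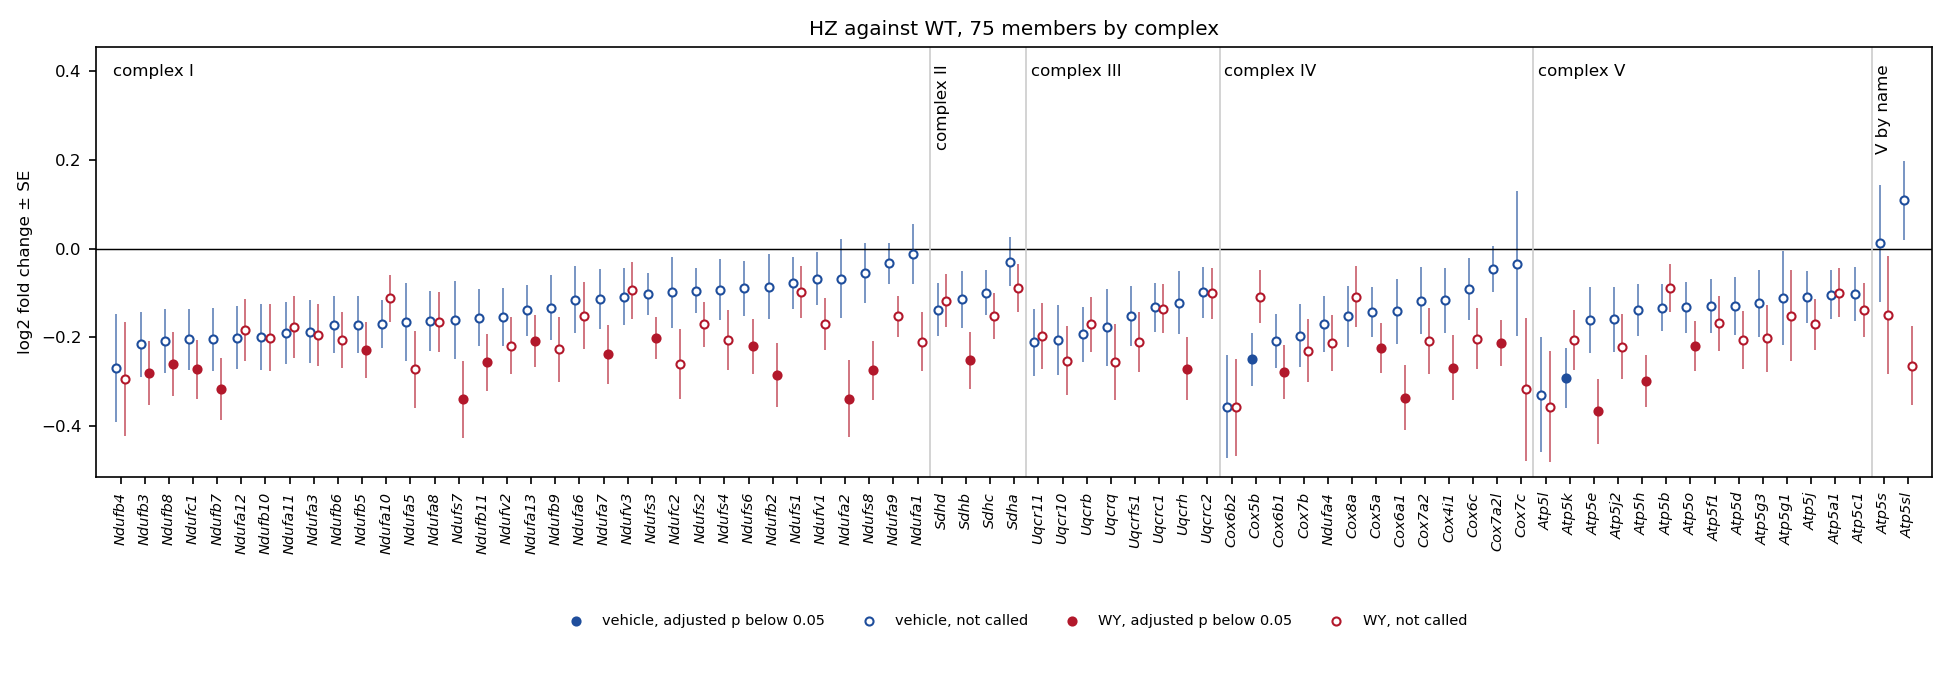
Log2 fold change ± SE of HZ against WT for the 75 members by complex, under vehicle (blue) and under WY (red), sorted by the vehicle value. Filled points passed an adjusted p of 0.05 in edgeR. All 75 red points and 73 blue points lie below 0, and most are within 0.4 of it.

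Under vehicle 73 of 75 members were below 0, with a median log2 fold change of -0.13 beside -0.00 over all genes. Only 2 were called lower, where 1.77% of all genes were. Cox5b, the zinc-binding subunit of complex IV, ranged from 50.4 to 59.6 CPM in WT and from 38.5 to 50.7 in HZ, with a log2 fold change of -0.25 ± 0.06 (SE) and adjusted p = 0.0300 (edgeR). Atp5k, the membrane subunit e of complex V, ranged from 73.7 to 95.2 CPM in WT and from 56.3 to 75.3 in HZ, with -0.29 ± 0.07 and adjusted p = 0.0276. Of the 50-base transcript windows, 25.9% for Cox5b and 1.24% for Atp5k also occurred in other genes. Both pairs of groups overlapped slightly. Neither member was called without WT vehicle animal 74, 76, 29 or 32 or without HZ vehicle animal 38 or 30, and Atp5k alone was called without WT vehicle animal 78.

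Averaged over its members, every complex was lower in HZ. Complex I averaged 6.18 ± 0.061 log2 CPM in WT and 6.04 ± 0.133 in HZ under vehicle, and with WY it averaged 6.61 ± 0.0694 in WT and 6.39 ± 0.123 in HZ (SD, n = 7). The HZ minus WT difference under WY was -0.22 for complex I, -0.15 for II, -0.20 for III, -0.23 for IV and -0.21 for V, and 6, 5, 6, 6 and 7 of the 7 HZ animals were below the lowest WT animal. Under vehicle the differences were -0.14, -0.10, -0.17, -0.16 and -0.16. The WY minus vehicle difference in WT was 0.44 for complex I, 0.18 for II, 0.35 for III, 0.38 for IV and 0.41 for V, and all 7 WY animals were above all vehicle animals in each.

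**Figure D5:**
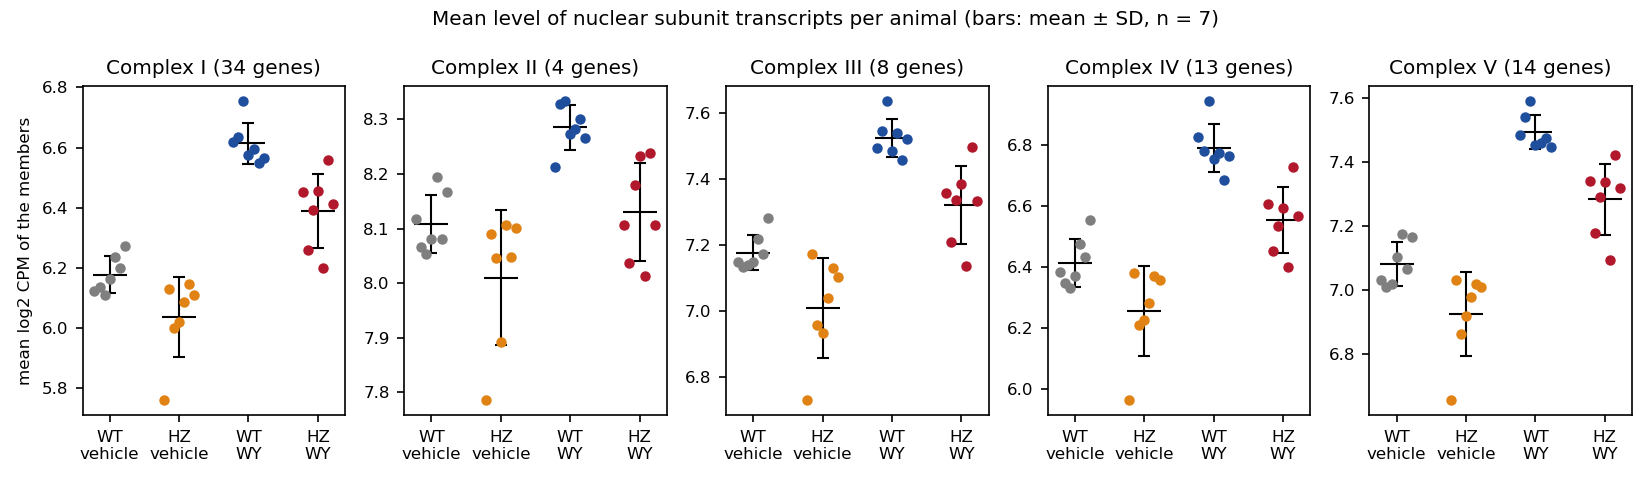
Mean log2 CPM over the members of each complex (y axis, a separate range for each panel) per animal (points) in the 4 groups, with mean ± SD bars (n = 7). In WT all WY animals lie above all vehicle animals in each complex, and HZ animals are lower on average and more spread than WT animals, with HZ vehicle animal 38 lowest in every panel.

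Several HZ libraries were taken to stand apart from the rest over all genes, namely vehicle animals 30 and 38 and WY animals 14, 15 and 21. They were picked after the data had been seen, and no cut-off defined the set. Summed over 13 of 14 Kupffer cell and macrophage markers, these 5 libraries had 692.8 to 966.1 CPM. HZ vehicle animal 35, which is not among the 5, had 739.9 CPM and the highest complex I mean of its group (6.15 log2 CPM). Under vehicle the sum had a median of 513 CPM in WT (472 to 629) and 522 in HZ (476 to 888), and under WY a median of 438 in WT (363 to 508) and 531 in HZ (392 to 966). None of the 13 was called between genotypes under either treatment. Summed over 7 of 8 neutrophil and monocyte markers, the 5 libraries had 14.8 to 25.1 CPM, HZ vehicle animal 35 had 15.0, and the other HZ libraries had at most 8.5. In WT this sum was 5.364 to 10.59 CPM with vehicle and 4.022 to 6.069 with WY. Of the 6 such markers tested, 1 was called higher in HZ under WY and none under vehicle. HZ vehicle animal 38 and HZ WY animal 21, with the lowest complex I means of their groups (5.76 and 6.20 log2 CPM), had 21.1 and 25.1 CPM. Both were the highest of their groups for several other marker sums. Cholangiocyte markers summed to 79.5 and 107.3 CPM and stellate cell markers to 556.9 and 517.4. Sinusoidal endothelial markers summed to 553.5 and 503.4 CPM, and T, B and NK cell markers to 8.3 and 6.9. The part of these cells in the genotype difference was not tested beyond the values without the 5 libraries. Without the 5 libraries the median difference of the members between HZ and WT was -0.08 under vehicle and -0.15 under WY. Then 0 and 2 members were called lower. Over all genes 0 and 48 were called either way, beside 261 and 398 with every library. With WY, 61 members in WT and 57 in HZ were called higher without the 5 libraries. Over all genes 7166 and 6417 were then called either way, beside 6815 and 7024 with every library.

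Length moved with the genotype difference too. Under WY the median over all genes went from -0.10 in the shortest 25% to 0.10 in the longest 25%, and the 67 members among the shortest had a median of -0.21. With the length trend removed, 9 members were called lower under WY, and all 75 stayed below 0 with a median of -0.14. With another length for each gene, the median of its coding transcripts, the count was 21 and the median -0.18. Over all genes 331 and 386 were called either way in these fits, beside 398 in the main fit.

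The response to WY was not shown to differ between genotypes for any member. The interaction had a median of -0.07 on the log2 scale and was called for 0 of 75 members and 0% of all genes (edgeR). At an unadjusted p under 0.05 there were 1182 genes and 5 members, and DESeq2 called 3 genes and limma voom 1, none of them a member. Atp5sl had the smallest p among the members, with an interaction of -0.37 ± 0.13 (SE) and adjusted p = 0.408, followed by Ndufs8 (-0.22, adjusted p = 0.493) and Cox7a2l, a supercomplex factor (-0.17, adjusted p = 0.50).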

How the data were processed

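RNA-seq libraries of 28 mouse livers were analysed from raw counts of reads per gene symbol, deposited by the authors without normalization in a table of vehicle libraries and a table of WY libraries. Per the submitters' processing notes, STAR 2.5.0a, HTSeq 0.6.1p1 and DESeq2 1.18.1 were used with the build mm10. Neither the annotation nor the use of strand in counting is stated. HTSeq summary rows were left out, as were 25 and 27 rows with names turned into dates.

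Members and gene lists were chosen with earlier results of these data known. Groups follow the labels, and animal numbers serve as replicate numbers. All 28 libraries were fitted together with edgeR 4.0.16 (R 4.3.3): TMM scaling, filterByExpr (12607 genes), a mean per group and robust quasi-likelihood tests, with Benjamini-Hochberg adjusted p under 0.05 as a call. CPM are on TMM-scaled library sizes, and log2 CPM add a prior count of 2. With 24 residual degrees of freedom, p-values measure the spread between animals. DESeq2 1.42.0, limma 3.58.1 and other settings served as alternatives. The fits were tested on simulated data.

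Transcript lengths and positions came from GENCODE on GRCm38, matched for all 75 members. Shares of transcript windows that occurred in other genes are given for some named members only, and other members had such windows too. Each gene was given its APPRIS principal transcript. That choice was made after the data had been seen, because median lengths gave implausible values for some members, and both lengths are reported. Named members were, per complex and comparison, up to 6 called with the smallest p and the most abundant member, the 3 largest and 3 smallest changes, tissue isoform pairs, and the top 2 of each list. Uqcrb, Cox7b, Cox6c and other members named outside this rule were chosen after their values were seen.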

Additional observations from a re-analysis of the deposited data

Results flagged for a closer look

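Of 212 sets of 7 animals checked (each complex mean and named member in each group), 16 had 1 animal whose gap to the next was above Dixon's 95% limit for the whole range. Chance alone flags about 5% of such sets, and the sets share animals.

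HZ vehicle animal 38 was the lowest in 10 of the 16. Its mean log2 CPM was 5.76 for complex I, where the others were 6.00 to 6.15, and 5.96 for complex IV, where the others were 6.21 to 6.38. Its CPM were 244 for Cox4i1, 134 for Cox6a1, 86.3 for Cox8a, 26.3 for Ndufa11, 55.0 for Ndufa8, 69.2 for Ndufb10, 29.9 for Ndufb3 and 43.0 for Ndufs7. The same library is 1 of the 5 HZ libraries that were taken to stand apart over all genes.

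WT WY animal 19 was the highest in 4, with a complex I mean of 6.76 (others 6.55 to 6.63) and CPM of 343 for Atp5d, 252 for Atp5e and 93.9 for Ndufv3. WT vehicle animal 32 was the highest in 2, with 95.2 CPM for Atp5k and 52.8 for Ndufb3.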

How the results depend on the processing

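Members called higher with WY numbered 47 to 64 in WT and 41 to 62 in HZ over all alternatives run, beside 61 and 60, and the lowest of each came with the length trend removed. Leaving out 1 animal gave 60 to 62 and 55 to 62. Over all genes, calls either way were then 6495 to 6757 and 6658 to 7130, beside 6815 and 7024 in the main fit. Members called lower with WY numbered 2 in each genotype, 5 in WT and 4 in HZ with the length trend removed, 3 in each with median transcript lengths, and 1 to 2 in WT with 1 animal left out. Atp5k turned to -0.0115 (adjusted p = 0.886) in WT with the length trend removed.

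The 24 members lower in HZ under WY became 41 with DESeq2 size factors in edgeR, 55 with DESeq2 and 48 with limma voom. They became 6 with no filter on low counts and 9 with the length trend removed (21 with median transcript lengths). They became 2 without the 5 HZ libraries that stood apart, and 2 to 48 with 1 animal left out. Over all genes, calls either way were 398 in the main fit and 683, 1123, 934, 153, 331 (386) and 48 in this order of settings. With 1 animal left out they were 74 to 977. The 2 members lower under vehicle became 4 with DESeq2, 1 with a term for animals 71 to 78 and 1 with the clock score as a covariate. They became 0 in a fit of the compared groups only, with animals 29 to 39 only and without the 5 HZ libraries. With 1 animal left out they became 0 to 3. Over all genes, calls either way were 261 in the main fit and 521, 69, 122, 0, 0 and 0 in this order of settings. With 1 animal left out they were 43 to 650. The causes were not tested, except that the smaller fits hold fewer samples. The clock score is the mean log2 CPM of Dbp, Tef, Per3 and Nr1d1 minus that of Arntl, Clock and Npas2. Under WY it ranged from 1.63 to 4.85 in WT and from -0.01 to 3.27 in HZ. With this covariate, 74 members were below 0 in HZ against WT under WY, with a median of -0.23. The part of the clock in the genotype difference was not tested beyond these values. The median over members in place of the mean gave a WY difference in WT of 0.23 for complex II and 0.48 for complex V. All complex differences kept their direction with DESeq2 size factors, the median over members, a prior count of 0.5 and 1 animal left out. Complex differences were not computed under the other alternatives. The median transcript length, the clock score and the 5 libraries were chosen after seeing the data. No paired analysis was possible because the groups share no animal number. Depth was similar in all groups, and the precision of low members such as Ndufb4 and Cox7c is limited by their counts.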
